A study of Drosophila melanogaster with 7 samples.

Results

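Gadd45, GstD5 and CG13024 cells are midgut tumor cells that held transcripts of at least 2 of 7 genes, which were CG13024, GstD5, Gadd45, CG3397, lncRNA:CR42646, CG32195 and lncRNA:CR44135. By this rule 1330 of 7899 kept cells were chosen, and they are called rule-positive cells here. The measurement is droplet single-cell RNA sequencing, where a unique molecular identifier (UMI) marks every captured transcript so that copies of it are counted once. Libraries Tind1 to Tind6 each came from 1 dissected tumor, and library Tgrp from a group of 6 tumors. Kept cells had 100 to 2000 detected genes and at most 15% of UMIs from the mitochondrial genome.

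All libraries came from 1 genotype, and no normal gut was among them. Flies carrying yw, HS-flp with HS-mflp5, then esg-gal4 with UAS-flybow, and FRT82B with Tub-Gal80 were crossed to yw, HS-flp flies with UAS-RasV12 and, on FRT82B, the alleles Apc2N175K and ApcQ8. A heat shock of 2 h at 37 °C, given 2 to 3 days after eclosion, induced recombination, and tumors were dissected at least 21 days later. Since esg-gal4 drives the transgenes in progenitor cells, cells of the same tumor that differ in esg activity or that were not recombined need not carry the same load of RasV12. The comparison is between rule-positive cells and other cells of the same tumor. A difference in load between these cells would remain in it and was not tested.

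Gadd45 encodes a small protein of the growth arrest and DNA damage family, known in flies and mammals as an activator of stress kinase cascades. GstD5 belongs to the delta class of glutathione S-transferases, enzymes that couple glutathione to electrophiles, and GST genes are classical targets of the antioxidant factor Nrf2, named cnc in flies. In the fly midgut, stem cells that express Delta and esg renew the epithelium and give rise to enterocytes and enteroendocrine cells, and stress pathways are active when this epithelium is damaged.

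The kept cells per library numbered 309 to 2922, with a median of 317 to 2384 UMIs per cell. A cell with more UMIs meets such a rule more easily, so each test compares cells of matched depth, while the levels of the rule genes themselves are given beside all other kept cells, whose depth was not matched. The deposited Tind4 and Tind5 libraries shared 116 cell barcodes, while no other 2 libraries had more than 3 in common, and 99 otherwise kept Tind5 cells with a Tind4 barcode were dropped. Doublets were not removed. Tind3 and Tind6, the shallowest libraries, held 35 and 22 rule-positive cells, so each of their values rests on few transcripts.

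The share of kept cells that met the rule was lowest in Tind6 (7.12%), had a median of 12.4% over the 6 individual tumors and was highest in Tind4 (29.4%). Tind1 had 20.2% (418 of 2065 cells), Tind2 9.0% (80 of 889), Tind3 8.93% (35 of 392), Tind5 15.8% (87 of 552) and Tgrp 15.8% (462 of 2922). Exact 95% binomial intervals, limited to counting error, ran in Tind4 from 26.2 to 32.7% and in Tind6 from 4.52 to 10.6%. When 300 UMIs were drawn from each cell and shallower cells were left out, 249 of 7621 cells met the rule, and the order of the tumors changed: Tind5 had 7.54%, Tind3 6.16%, Tind4 5.07%, Tind1 3.39%, Tind6 2.56% and Tind2 1.35%. The share therefore follows depth as well as the cells, and the high full-depth value of Tind4 goes with its median of 2384 UMIs per cell. The mean over tumors was 15.1% ± 8.59 at full depth and 4.34% ± 2.33 at 300 UMIs (SD, n = 6).

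**Figure D1:**
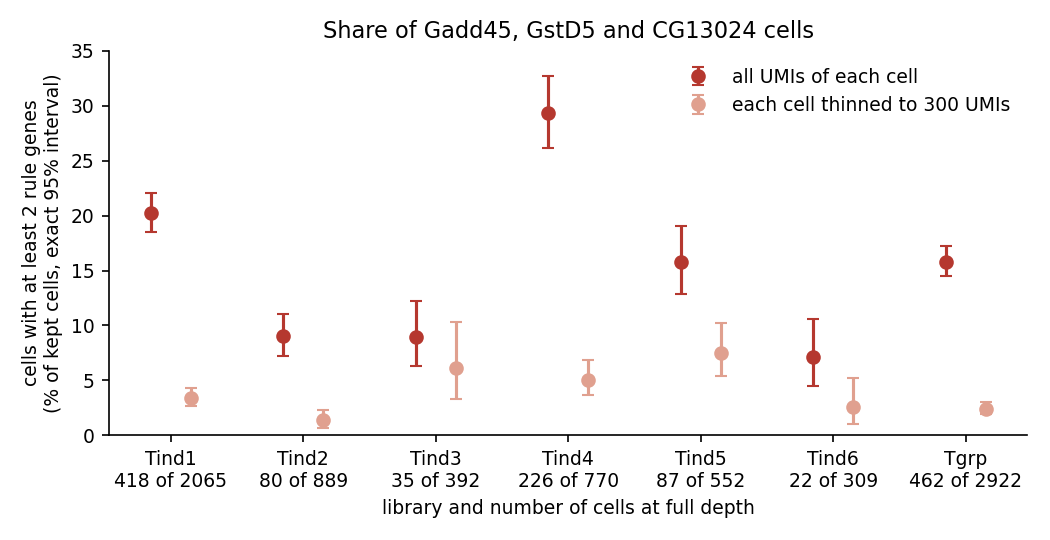
Share of kept cells with UMIs in at least 2 rule genes (percent, y axis) in each of the 7 libraries, with all UMIs (dark points, left) and with each cell thinned to 300 UMIs (light points, right). Bars are exact 95% binomial intervals; at full depth Tind4 stands highest at 29.4% and at 300 UMIs Tind5 stands highest at 7.54%.

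The threshold of the rule did not fall into a gap. There were 4561 cells with none of the 7 genes, 2008 with exactly 1, 843 with exactly 2 and 487 with 3 or more. Cells just outside the rule carried a median of 1 UMI of the rule genes, and cells just inside it a median of 3. Rule-positive cells were also the deeper ones, which is why each was paired below with another kept cell of its own library that had nearly the same number of UMIs.

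The 7 genes were used to choose the cells, and their values are given as a description without a test. Gadd45 was seen in 73.5% of rule-positive cells, GstD5 in 62.7%, CG3397, an aldo-keto reductase family gene, in 42.8%, and CG13024, which has no assigned function here, in 29.5%. CG32195 was seen in 25.0%, lncRNA:CR44135 in 14.1% and lncRNA:CR42646 in 6.92%. The leading combination was GstD5 with Gadd45, found in 591 cells or 44.4%, while CG13024 together with Gadd45 was found in 261 cells. The label is therefore carried by Gadd45 and GstD5 in most cells and by CG13024 in a minority of them, and in Tind3 only 2.86% of rule-positive cells had a CG13024 transcript.

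Gadd45, at 2R from 7249161 to 7250655 in genome release 6, had 613 CPM (UMIs of the gene per 1000000 UMIs of the summed cells) in rule-positive cells of Tind1, the lowest of the 6 tumors, a median of 1037 and a highest value of 2973 CPM in Tind5. In all other kept cells its lowest, median and highest values were 84.8, 174.8 and 380.5 CPM. GstD5, at 3R from 12375733 to 12376572, had 463, 961 and 2247 CPM in rule-positive cells and 38.6, 66.4 and 363 CPM in the other cells. The 2 groups of tumors did not overlap for either gene. They did overlap for lncRNA:CR42646, with 0 to 143 CPM in rule-positive cells and 0 to 18.8 CPM in the other cells. CG13024, at 3L from 16809658 to 16829074, had 47.8, 275 and 530 CPM in rule-positive cells and 0, 15.7 and 24.5 CPM in the others. Other kept cells were not free of these transcripts: 10.45 to 17.4% of them had a UMI of Gadd45 and 3.83 to 9.53% a UMI of GstD5. No cell type known to lack these genes was labelled, so the level that free RNA alone would give was not measured.

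To see whether the genes keep company beyond the choice of cells, each was measured in cells that had at least 2 of the other 6, beside depth-matched cells that did not. GstD5 had 376 to 1001 CPM in such cells of the 6 tumors, against 0 to 475 CPM in the matched cells, and was higher in all 6 tumors. Its mean was 602 ± 285 CPM against 178 ± 175 CPM (SD, n = 6). lncRNA:CR44135 was also higher in all 6 tumors, with a median of 47.7 CPM against 8.59 CPM, and its 2 groups did not overlap. That separation rested on few UMIs, with 6 against 1 in Tind2, 3 against 0 in Tind3 and 1 against 0 in Tind6. Gadd45, CG3397 and CG13024 were higher in 5 of 6, CG32195 in 4 and lncRNA:CR42646 in 3. Tind3 was the exception for Gadd45, with 156 CPM in cells with 2 of the other genes and 1562 CPM in matched cells. Because the 7 genes were picked on these same libraries, these values describe the cells and are no independent evidence that the genes belong together.

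**Figure D2:**
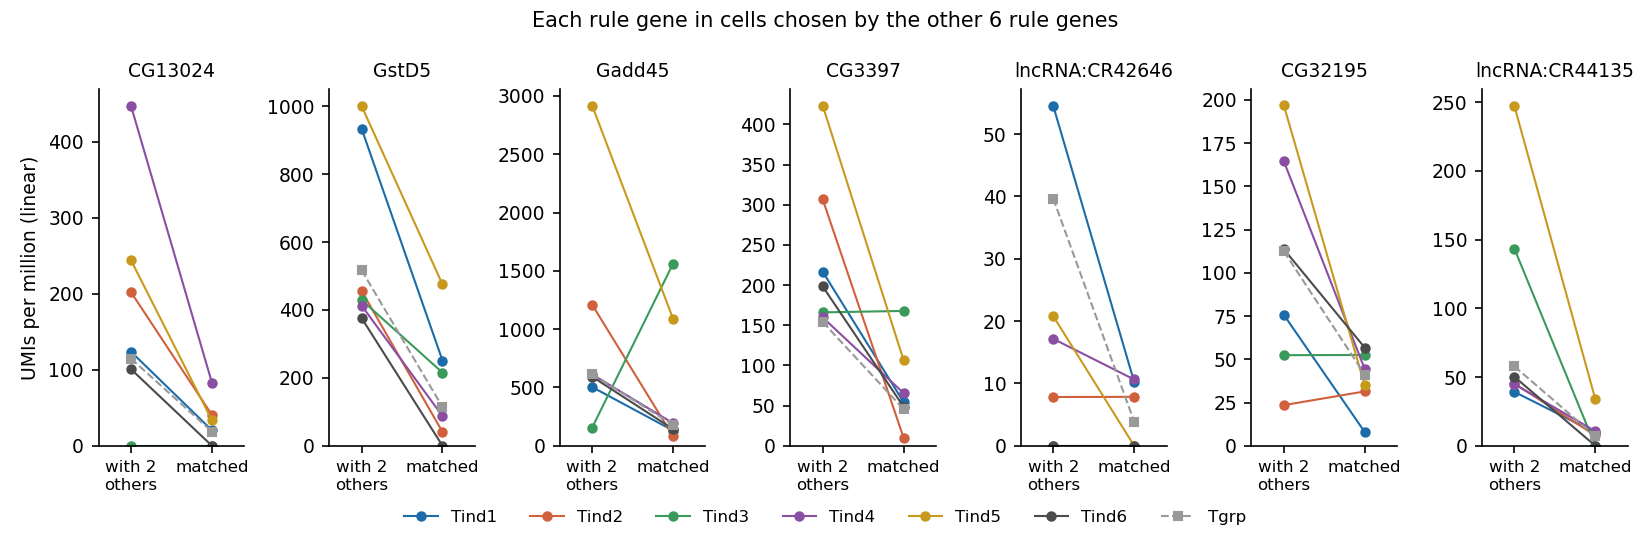
Level of each of the 7 rule genes (CPM, linear axis) in cells with at least 2 of the other 6 rule genes (left) and in depth-matched cells without them (right), 1 line per library and Tgrp dashed. GstD5 and lncRNA:CR44135 lie higher on the left in all 6 individual tumors; Gadd45 in Tind3 runs the other way.

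Some of the rule genes are neighbours. On the minus strand of 3R, lncRNA:CR44135 (11977640 to 11978178), CG18547 (11978574 to 11980390), CG12224 (11980704 to 11982062) and CG3397 (11983098 to 11984541) follow one another. Over the 6 tumors CG12224 had 195 UMIs in rule-positive cells and 24 in the matched cells, and CG18547 had 262 and 91, although neither gene was in the rule. The next genes on either side, CG10005 and mfas, had 16 and 13 UMIs in rule-positive cells and 3 each in matched cells, and Tango9, farther out, had 45 and 40. In the direction of transcription the lncRNA starts 395 bp beyond the end of CG18547. Whether transcripts of 1 gene of the run were counted for the next was not tested. GstD5 in turn lies in a cluster of related GstD genes on 3R, in which GstD2 had 10054 UMIs in rule-positive cells and 2374 in matched cells, GstD6 had 98 and 8, and GstD10 had 119 and 26. GstD genes are close paralogs, so the split of reads between them is uncertain. CG32195 lies inside CG7341 on the same strand, and CG13024 overlaps nudC on the opposite strand, so a part of the counts of both could belong to the partner gene.

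For all other genes, UMIs of the rule-positive cells of a tumor were summed and set beside those of an equal number of depth-matched other cells, which gave 867 pairs of cells in 6 tumors. The rule genes were left out of the sums. The filter asks for enough UMIs in about as many sums as 1 class has, so a gene could pass through rule-positive cells alone. Of 1218 genes with enough UMIs, 445 (36.5%) had an adjusted p under 0.05 in edgeR's quasi-likelihood test with the tumor as a block. These were 252 genes higher in rule-positive cells (20.7%) and 193 lower (15.8%), and 94 of them were higher, and 132 lower, in every tumor. Without Tind1, which gave 418 of the pairs, 215 genes were called, 129 higher and 86 lower. Because more than 1 gene in 3 was called, a gene list stands out only where its counts lie well beyond these shares.

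The largest rises and falls named below were chosen among calls with 1 sign in every tumor. Their agreement over the 6 tumors was therefore fixed by that choice. CG8620, an uncharacterized gene at 3L from 7158099 to 7158874, had the largest rise. It had 1044, 1658, 1250, 1334, 4560 and 347 CPM in rule-positive cells of Tind1 to Tind6, against 169, 249, 818, 606, 451 and 212 CPM in matched cells, so it was higher in 6 of 6 tumors although the groups overlapped. Its log2 fold change was 2.35 ± 0.27 (SE, edgeR adjusted p = 7.85e-07). In Tind1, 229 of 418 rule-positive cells and 89 of 418 matched cells had a UMI. In Tind6 the difference rested on 8 UMIs, 5 of them from 1 cell, and 4 of 22 against 5 of 22 cells had a UMI.

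lncRNA:noe, which had been named as a marker of these cells with earlier results known, is given without a test. Its median was 396 CPM in rule-positive cells and 84.1 CPM in matched cells of the 6 tumors. In Tind4, 70.8% of its 776 UMIs in rule-positive cells came from 1 cell, and 30 of 225 rule-positive against 24 of 225 matched cells had a UMI. Most rule-positive cells thus lacked a detected lncRNA:noe transcript in every library. The gene lies within blot on the same strand.

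kek1, a transmembrane inhibitor of the EGF receptor that EGFR signaling itself induces, had the clearest separation among the leading genes. It had 629, 811, 481, 857, 732 and 477 CPM in rule-positive cells of Tind1 to Tind6, against 173, 307, 337, 245, 283 and 84.8 CPM in matched cells. The groups did not overlap, and the log2 fold change was 1.81 ± 0.17 (SE, edgeR adjusted p = 9.40e-08). In Tind4, 152 of 225 rule-positive cells had a kek1 UMI, against 86 of 225 matched cells. Of the 6 tested genes of the EGFR and Ras list, kek1 and aop, which encodes the ETS repressor Yan, were higher and none lower. Over all genes tested, 20.7% were called higher. Ras85D, which covers the endogenous gene and could take transcripts of the RasV12 transgene, had a log2 fold change of -0.37 (adjusted p = 0.0746). It was lower in all 6 tumors, by an amount that did not pass the test. Ras85D was called lower in 5 alternatives, among them those against unmatched cells (edgeR adjusted p = 0.0385) and with Tgrp added (edgeR adjusted p = 0.0482). aop was not called by DESeq2 (adjusted p = 0.0749).

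trbl, which encodes the pseudokinase Tribbles that promotes turnover of the mitotic phosphatase String, was higher in 6 of 6 tumors. Its lowest, median and highest values were 217, 331 and 481 CPM in rule-positive cells and 58.5, 101 and 241 CPM in matched cells. The ranges met only through the matched value of Tind3, and the log2 fold change was 1.83 ± 0.21 (SE, edgeR adjusted p = 7.25e-07). trbl was the only gene called among the 5 tested of the ATF4 and amino acid list, whose median log2 fold change was 0.001.

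**Figure D3:**
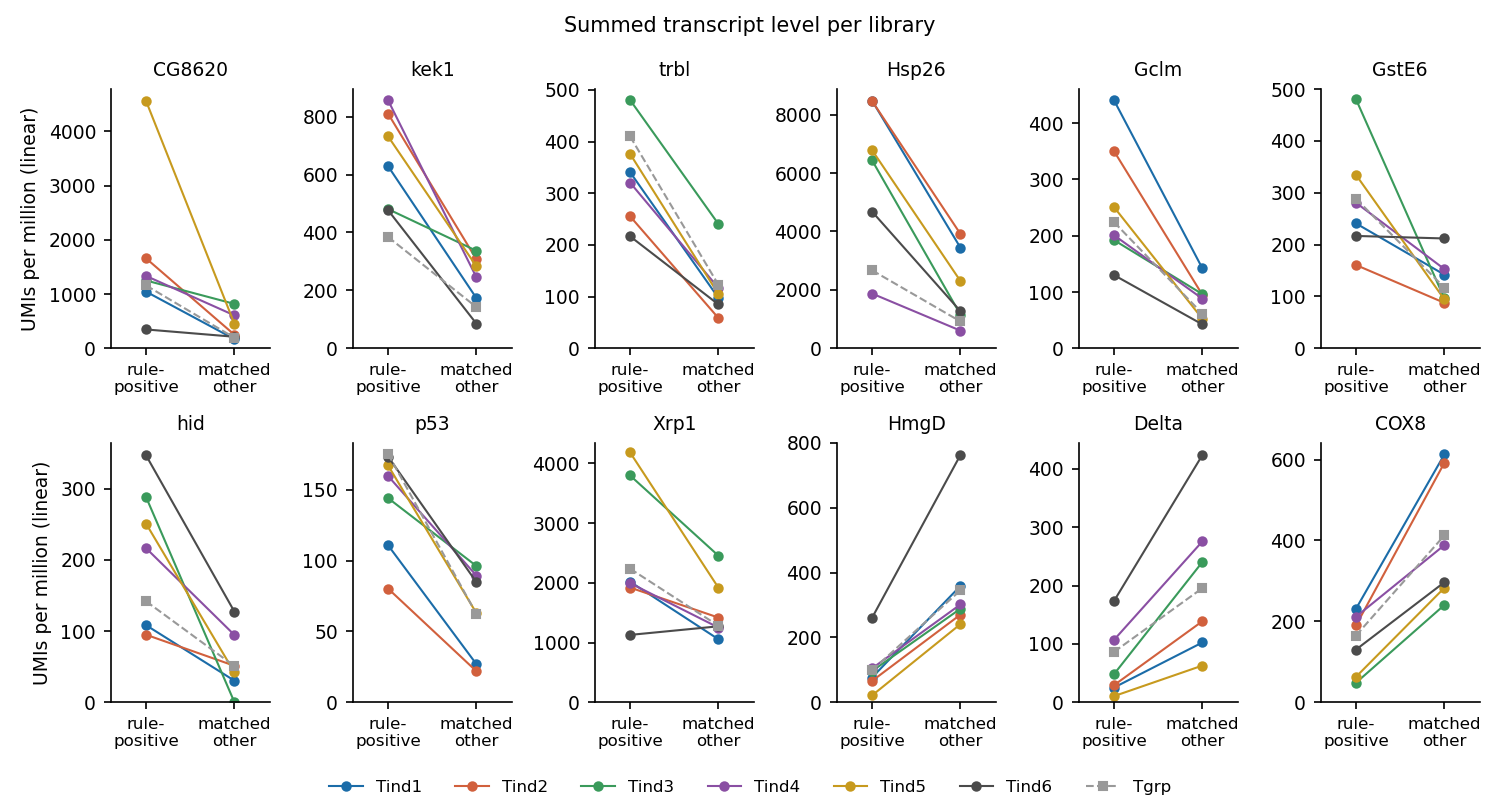
Level of 12 genes (CPM, linear axis) in rule-positive cells (left) and depth-matched other cells (right), summed per library, 1 line per library and Tgrp dashed. All genes shown except Xrp1 moved the same way in all 6 individual tumors, as was required of the largest rises and falls among them. Xrp1 ran the other way in Tind6, with 1128 against 1272 CPM.

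Genes of the p53 and DNA damage response were higher as far as they could be tested. Of 18 listed genes only 6 had enough UMIs, and all 6 were called higher, beside 20.7% of all genes tested. Their median log2 fold change was 0.95, beside 0.008 over all genes tested. A gene could pass the filter through rule-positive cells alone, and hid had 94.9 to 347 CPM there against 0 to 127 CPM in matched cells. The count of 6 is therefore no independent support, and the same limit holds for the other lists with genes called higher. hid, which encodes a cell death protein that blocks the inhibitor of apoptosis Diap1, had 108, 94.9, 288, 217, 251 and 347 CPM in rule-positive cells of Tind1 to Tind6, against 30.3, 51.2, 0, 94.5, 41.9 and 127 CPM in matched cells. It was higher in every tumor, with a log2 fold change of 1.72 ± 0.24 (SE, edgeR adjusted p = 1.16e-05). In Tind1, 82 of 418 rule-positive and 28 of 418 matched cells had a hid UMI, so most cells of both kinds had none.

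p53 itself, the transcription factor of the DNA damage response, was higher in 6 of 6 tumors, with 80.3 to 174 CPM in rule-positive cells and 21.9 to 96.2 CPM in matched cells. Its log2 fold change was 1.51 ± 0.24 (edgeR adjusted p = 4.61e-05). Xrp1, a bZIP factor induced by p53 after irradiation and by ribosomal stress, was by far the most abundant gene of the list. It had 1128, 2007 and 4184 CPM as lowest, median and highest values in rule-positive cells and 1055, 1345 and 2453 CPM in matched cells. Xrp1 was higher in 5 of 6 tumors, with a log2 fold change of 0.89 ± 0.14 (edgeR adjusted p = 3.62e-05), and Irbp18, its bZIP partner, rose by 0.79. rad50, a subunit of the double-strand break complex, and RnrL, a ribonucleotide reductase subunit, were higher in all 6 tumors by 1.01 and 0.87. For rad50, however, Tind3 had 1 UMI against 0 and Tind6 had 2 against 2. These values did not differ beyond the counting of few UMIs. Diap1, the target of Hid, had a log2 fold change of -0.12 (adjusted p = 0.663).

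Antioxidant and detoxification genes formed another group. Of 36 genes of the glutathione S-transferase list, 9 were tested, 7 were higher and 1, GstE12, was lower, with a median log2 fold change of 0.70. All genes tested gave 20.7% higher and 15.8% lower. Among the 7, GstD1, GstD2, GstD3 and GstD9 lie in the cluster of the rule gene GstD5. The cells were chosen with GstD5, and reads may be split between these paralogs, so their calls are no separate support. The higher genes outside the cluster were GstE6, GstO3 and GstS1. GstE6, of the epsilon class and on another chromosome arm than the GstD cluster, had 161, 261 and 481 CPM as lowest, median and highest values in rule-positive cells and 87.7, 119 and 212 CPM in matched cells. It was higher in 6 of 6 tumors, in Tind6 by 217 against 212 CPM only, and its log2 fold change was 1.13 ± 0.22 (edgeR adjusted p = 0.000384). GstD3 separated the groups by a narrow margin, at 169.7 to 292 CPM in rule-positive cells and 41.9 to 169.5 CPM in matched cells. GstD2 was higher in all 6 tumors, but 9356 of its UMIs came from Tind1, where it had 7858 CPM in rule-positive cells and 1587 CPM in matched cells.

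Of the 20 genes of the Nrf2 and antioxidant list, 10 were tested, 6 were higher and 1, the mitochondrial superoxide dismutase Sod2, was lower. The background over all genes tested was 20.7% higher and 15.8% lower. Gclm, the modifier subunit of the enzyme that starts glutathione synthesis, had 441, 351, 192, 201, 251 and 130 CPM in rule-positive cells of Tind1 to Tind6, against 142, 95, 96.2, 88.1, 52.4 and 42.4 CPM in matched cells. It was higher in every tumor, by 1.72 ± 0.22 on the log2 scale (edgeR adjusted p = 3.29e-06). Catalase (Cat), the peroxidase Gtpx and ref(2)P, the fly homolog of the autophagy receptor p62, were higher in 6 of 6 tumors by 0.81, 0.72 and 0.78. Trxr1 and Prx2 were called higher as well. Cyp6d2, a cytochrome P450, and the glycosyltransferase Ugt302C1 were higher by 1.56 and 0.99, and with Ugt302K1 they were the only 3 genes tested of 120 in their list. Cat was not called without Tind1 (edgeR adjusted p = 0.0685). With cells of 2 enterocyte, enteroendocrine or dividing markers left out, Cat was at 0.46 and Gtpx at 0.44. Neither was called there (edgeR adjusted p = 0.217 and 0.0905).

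Heat shock genes were higher too. Of 9 genes tested in this list 8 were higher and none lower, beside 20.7% and 15.8% over all genes tested. The median log2 fold change of the list was 1.18. Hsp26, a small chaperone, had 8485, 8472, 6441, 1875, 6788 and 4683 CPM in rule-positive cells of Tind1 to Tind6, against 3447, 3917, 1154, 604, 2305 and 1272 CPM in matched cells. It was higher in 6 of 6 tumors, with a log2 fold change of 1.75 ± 0.12 (edgeR adjusted p = 5.07e-10), and Hsp23 followed it at 1.70. The inducible chaperones Hsp68 and Hsp70Bc were higher by 1.26 and 1.27, each in 5 of 6 tumors, and Hsp83, DnaJ-1 and stv were also higher in 5 of 6. Hsp70 genes are near-identical copies, so a single member's count is uncertain. CG7130, which encodes a DnaJ domain protein, rose by 1.51.

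The share of cells with at least 2 inducible Hsp68 and Hsp70 genes was 7.56 to 34.5% among rule-positive cells and 0 to 18.8% among matched cells, and it was higher in 6 of 6 tumors. When cells with a UMI of these inducible genes were left out, an alternative chosen after seeing the data, 145 genes were higher and 81 lower among 625 tested. Of the 254 genes called before that could still be tested, 203 were called again and all 254 kept their sign. The other genes of the 445 could not be tested in cells without these transcripts.

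**Figure D4:**
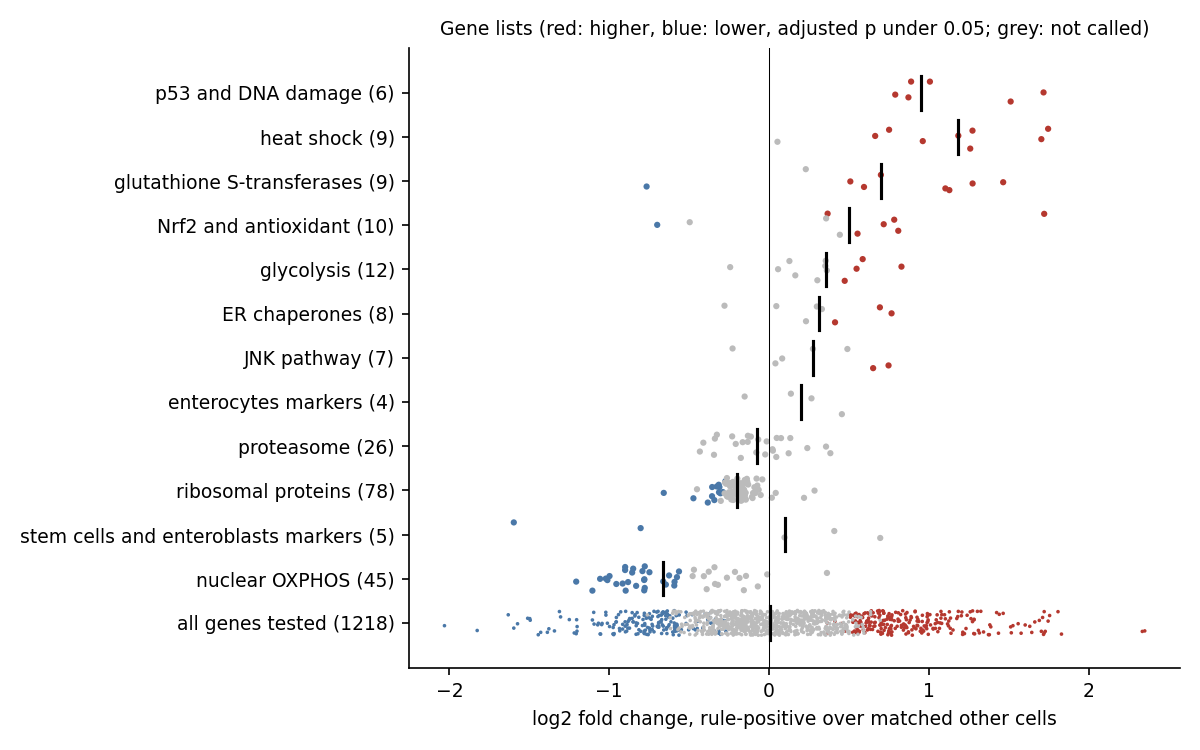
Log2 fold change of each tested gene (rule-positive over depth-matched other cells, x axis) by gene list, with the number of genes tested in parentheses and the median as a black bar. Red and blue points are genes called higher and lower, grey points are not called; all 6 p53 and DNA damage genes lie to the right and 29 of 45 nuclear OXPHOS genes are called to the left.

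Stress kinase genes moved less. Of 7 tested genes of the JNK pathway 2 were higher, Ets21C by 0.75 (edgeR adjusted p = 0.0111) and the JNK phosphatase gene puc by 0.65 (edgeR adjusted p = 0.0155), a share close to the background of 20.7%. kay, which encodes Fos, had a log2 fold change of 0.49 (adjusted p = 0.0814; called higher in 3 alternatives) and msn 0.27 (adjusted p = 0.231). Mekk1, the only tested gene of the p38 list and the fly homolog of the kinase that mammalian GADD45 binds, had 0.19 (adjusted p = 0.519). Ets21C was not called by DESeq2 (adjusted p = 0.0586), and neither it nor puc was called without Tind1 (adjusted p = 0.338 and 0.074).

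Transcripts of the respiratory chain were lower. Of 87 nuclear OXPHOS genes 45 were tested, 29 were lower and none was higher, with a median log2 fold change of -0.66. The background over all genes tested was 15.8% lower and 20.7% higher. COX8, a subunit of cytochrome c oxidase, had 231, 190, 48.1, 211, 62.8 and 130 CPM in rule-positive cells of Tind1 to Tind6, against 613, 592, 241, 389, 283 and 297 CPM in matched cells. The groups did not overlap, and the log2 fold change was -1.21 ± 0.19 (SE, edgeR adjusted p = 3.11e-05). blw, the alpha subunit of ATP synthase, did not overlap either, at 144 to 292 CPM in rule-positive cells and 396 to 722 CPM in matched cells. ATPsynC and COX5A fell by 1.11 and 1.06 on the log2 scale and were lower in 6 of 6 tumors. With cells of 2 enterocyte, enteroendocrine or dividing markers left out, COX5A was at -0.66 and was not called (edgeR adjusted p = 0.0684).

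The mitochondrial genome went the same way. Its transcripts made up 6.62, 6.97, 8.79, 5.58, 6.57 and 7.59% of UMIs in rule-positive cells of Tind1 to Tind6, against 7.29, 8.35, 10.1, 6.73, 8.84 and 9.27% in matched cells. The difference was -1.41 ± 0.53 percentage points (SD, n = 6) and negative in all 6 tumors (exact two-sided sign-flip permutation test, p = 0.03125, the smallest that 6 tumors allow, and 0.03125 after adjustment over the 2 values tested in this way). Tgrp had 6.93% and 8.51%. Kept cells had been limited to 15% by this same measure, and with a limit of 30% the difference was -2.88 percentage points. With the rule applied to cells thinned to 300 UMIs, rule-positive cells had the higher share in Tind3 (9.93 against 9.63%) and Tind4 (5.20 against 5.14%), and the difference over 5 tumors was -0.80 (exact permutation p = 0.25, without Tind6).

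Rule-positive cells also had fewer detected genes. At 300 UMIs per cell they had 164 ± 11.3 detected genes, against 175 ± 9.39 in matched cells (SD, n = 6). The difference of -11.1 ± 5.13 genes had the same sign in all 6 tumors (exact two-sided sign-flip permutation test, p = 0.03125, adjusted 0.03125), and Tgrp had 143 and 158 genes. It was smallest in Tind4, with 165 and 168 genes. With the rule applied to cells thinned to 300 UMIs the sign turned in Tind2 (168.5 against 158.6 genes), Tind3 (176.7 against 174.8), Tind4 (159.0 against 157.9) and Tind6 (181.7 against 169.6, from 7 pairs), and the difference over the 5 tumors with at least 10 pairs was -4.45 genes, which did not pass the exact permutation test. With cells of 2 enterocyte, enteroendocrine or dividing markers left out it was -4.37 genes over 6 tumors (exact permutation p = 0.125), with the sign turned in Tind3 and Tind6.

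Glycolytic genes were called higher in 4 of 12 cases and lower in none, beside 20.7% higher and 15.8% lower over all genes tested. Their median log2 fold change was 0.35. Ldh, which converts pyruvate to lactate, had 3396 ± 1760 CPM in rule-positive cells and 1997 ± 934 CPM in matched cells (SD, n = 6). It was higher in 5 of 6 tumors by 0.83 ± 0.16 (SE, edgeR adjusted p = 0.000357), while Tind4 ran the other way with 2005 and 2442 CPM. Hex-A, Ald1 and Pfk were called at 0.59, 0.47 and 0.55. Ldh, Hex-A, Ald1 and Pfk were all lost when cells with 2 enterocyte, enteroendocrine or dividing markers were left out (log2 fold changes of 0.24, 0.27, 0.04 and 0.09).

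Of 78 ribosomal protein genes tested, 13 were lower and none higher, which is close to the background of 15.8% lower. RpL41 and RpS2 fell by 0.47 and 0.66 and were lower in all 6 tumors. None of 26 proteasome genes was called by edgeR or DESeq2, and 1 had an unadjusted p under 0.05 in edgeR. ER chaperones were called higher in 3 of 8 cases (Hsc70-3, Gp93 and Xbp1), beside 20.7% over all genes tested. Hsc70-3, the ER Hsp70 known as BiP, was higher in 4 of 6 tumors, and none of the 3 was called once GstD5 was taken out of the rule (log2 fold changes of 0.36, 0.25 and 0.16).

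The 10 largest falls were genes of several functions. HmgD, a chromatin protein abundant in dividing cells, had 76.4, 65.7, 96.1, 104, 20.9 and 260 CPM in rule-positive cells of Tind1 to Tind6, against 359, 270, 289, 302, 241 and 763 CPM in matched cells. It was lower in 6 of 6 tumors by a log2 fold change of -1.83 ± 0.21 (SE, edgeR adjusted p = 1.12e-06), and the ranges met only through the rule-positive value of Tind6. Its paralog HmgZ and Pen, an importin alpha, separated the groups, HmgZ with 48.1 to 174 CPM in rule-positive cells and 178 to 372 CPM in matched cells. dUTPase, which keeps uracil out of DNA, separated them as well, with 41.8 to 144 CPM and 192 to 424 CPM, but with cells of 2 enterocyte, enteroendocrine or dividing markers left out it was at -0.71 and was not called (edgeR adjusted p = 0.0861). Acbp2, an acyl-CoA binding protein, fell by 2.03, fabp by 1.50 and the fatty acid synthase FASN1 by 1.43. fabp also separated the groups, with 80.3 to 215 CPM in rule-positive cells and 363 to 682 CPM in matched cells. Among the 5 tested genes of the lipid synthesis and storage list, FASN1 was the only one called, and the median log2 fold change of the 5 was 0.18; Acbp2 and fabp are not on that list. scramb2 and CG34232 completed the 10 largest falls, at -1.63 and -1.44.

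Delta, the Notch ligand of intestinal stem cells, had 25.2, 29.2, 48.1, 107, 10.5 and 174 CPM in rule-positive cells of Tind1 to Tind6, against 103, 139, 241, 276, 62.9 and 424 CPM in matched cells. It fell in 6 of 6 tumors, with a log2 fold change of -1.60 ± 0.22 (SE, edgeR adjusted p = 8.99e-06), and esg, a factor of stem cells and enteroblasts, fell by 0.80 and was lower in 5 of 6, a call lost without Tind1 (edgeR adjusted p = 0.0717). The groups overlapped for both. They were the 2 genes called among 5 tested of this marker list, beside 15.8% called lower over all genes tested. The median log2 fold change of the list was 0.10. E(spl)mbeta-HLH and E(spl)malpha-BFM, Notch target genes on the same list, had 0.69 (edgeR adjusted p = 0.0571) and 0.41 (edgeR adjusted p = 0.211), and E(spl)mbeta-HLH was called higher in 9 alternatives. Cells with at least 2 of 11 stem cell and enteroblast markers made up 4.55 to 44.4% of rule-positive cells and 14.3 to 58.8% of matched cells and were lower in 6 of 6 tumors. Cells with at least 2 of 24 markers of dividing cells were lower in 5 of 6, at 5.75 to 50.2% against 14.3 to 50.0%, and Tind4 was the exception. The summed level of the dividing markers was lower in all 6, at 321 to 1127 CPM against 621 to 1611 CPM. Only 3 of the 24 had enough UMIs for the test across genes, none of them was called by edgeR or DESeq2, 1 had an unadjusted p under 0.05 in edgeR, and their median log2 fold change was 0.017.

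Markers of differentiated cells gave no call, and most of them had too few UMIs for the test. Over the 6 tumors betaTry had 1 UMI in rule-positive and 25 in matched cells, alphaTry 2 and 16, and Jon65Aiv 1 and 14. Ssk, mesh and Tsp2A went the other way, with 1915 and 1564, 319 and 244, and 523 and 392 UMIs. Cells with 2 of 19 enterocyte markers made up 6.25 to 41.8% of rule-positive cells and 3.75 to 33.3% of matched cells, higher in 4 of 6 tumors, and none of the 4 enterocyte markers tested was called by edgeR or DESeq2 or had an unadjusted p under 0.05 in edgeR. Over the 867 pairs, 2 rule-positive and 4 matched cells had 2 enteroendocrine markers, 0 and 1 had 2 visceral muscle markers, 12 and 8 had 2 hemocyte markers, 5 and 6 had 2 neuronal or glial markers, and none of either kind had 2 fat body or tracheal markers. The hormone gene Tk had 7 UMIs in rule-positive and 70 in matched cells, CCHa2 3 and 85, and Orcokinin 22 and 16. The summed enteroendocrine level of matched cells was 1635 CPM in Tind5 and at most 25.9 CPM in the other individual tumors. With cells that had 2 enterocyte, enteroendocrine or dividing markers left out, 104 genes were higher and 61 lower among 915 tested, a called share of 18.0%. Of 362 earlier calls that could be tested, 151 were called again and 358 kept their sign. The part of the lower share of stem-marked cells in the result was not tested.

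Remaining genes of the largest rises were higher in every tumor, as their choice required. Hsp23, Arc2, whose protein forms virus-like capsids, Ifrd1, Bin1, a Sin3-associated protein, rdog, CG42240 and CG18547 had log2 fold changes of 1.70, 1.71, 1.66, 1.63, 1.60, 1.52 and 1.69. In Tind6, Arc2 differed by 43.4 against 42.4 CPM and CG42240 by 174 against 169.5 CPM, so these values did not differ beyond the counting of few UMIs. Listericin, an antimicrobial peptide gene, rose by 1.12, Atg8a, an autophagy gene, by 0.68, and Socs36E, a feedback inhibitor of JAK/STAT signaling, by 0.58. Listericin and Socs36E were each higher in 5 of 6 tumors. Listericin had 1361 UMIs against 515 in Tind1 and 96 against 102 in Tind4. In Tind2, Tind3, Tind5 and Tind6 it had 10, 3, 6 and 3 UMIs against 1, 1, 0 and 0. Socs36E had 477 against 509 CPM in Tind6, and 486 against 487 CPM in Tgrp. Socs36E was not called without Tind1 or without Tind4 (edgeR adjusted p = 0.0582 and 0.0512). The membrane reporter Cd8a-EGFP had a log2 fold change of 0.45 (adjusted p = 0.0919).

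In Tind1, Tind4 and Tgrp, the libraries with most rule-positive cells, the level of many of these genes followed the number of rule genes in a cell. Among cells of 1000 to 3000 UMIs, Xrp1 in Tind1 had 1133, 1358, 2134 and 2559 CPM in cells with 0, 1, 2 and 3 or more rule genes, and in Tgrp 1226, 1846, 2407 and 2727 CPM. CG8620 had 173, 582, 924 and 1770 CPM in Tind1 and 208, 550, 1184 and 1967 CPM in Tgrp. COX8 went down in Tind1, with 456, 316, 237 and 156 CPM. Cells with exactly 1 rule gene thus lay between the 2 ends for these genes.

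None of these libraries followed for every gene. Over the same classes lncRNA:noe had 132, 296, 82.5 and 69.4 CPM in Tind1 and 174, 394, 574 and 351 CPM in Tgrp. GstD2 had 1509, 5148, 9478 and 7564 CPM in Tind1. In Tind4 the Hsp26 level was 2091, 1322, 822 and 1580 CPM, and the HmgD level 167, 102, 223 and 174 CPM. In the same library kek1 had 225, 210, 1303 and 2165 CPM and Xrp1 1181, 1418, 2218 and 2647 CPM. The Tind4 classes held 123, 84, 43 and 49 cells. The classes are cells of single libraries and were not tested, and their median depth differed, from 1680 to 2026 UMIs in Tind4 and from 1500 to 1836 in Tgrp.

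**Figure D5:**
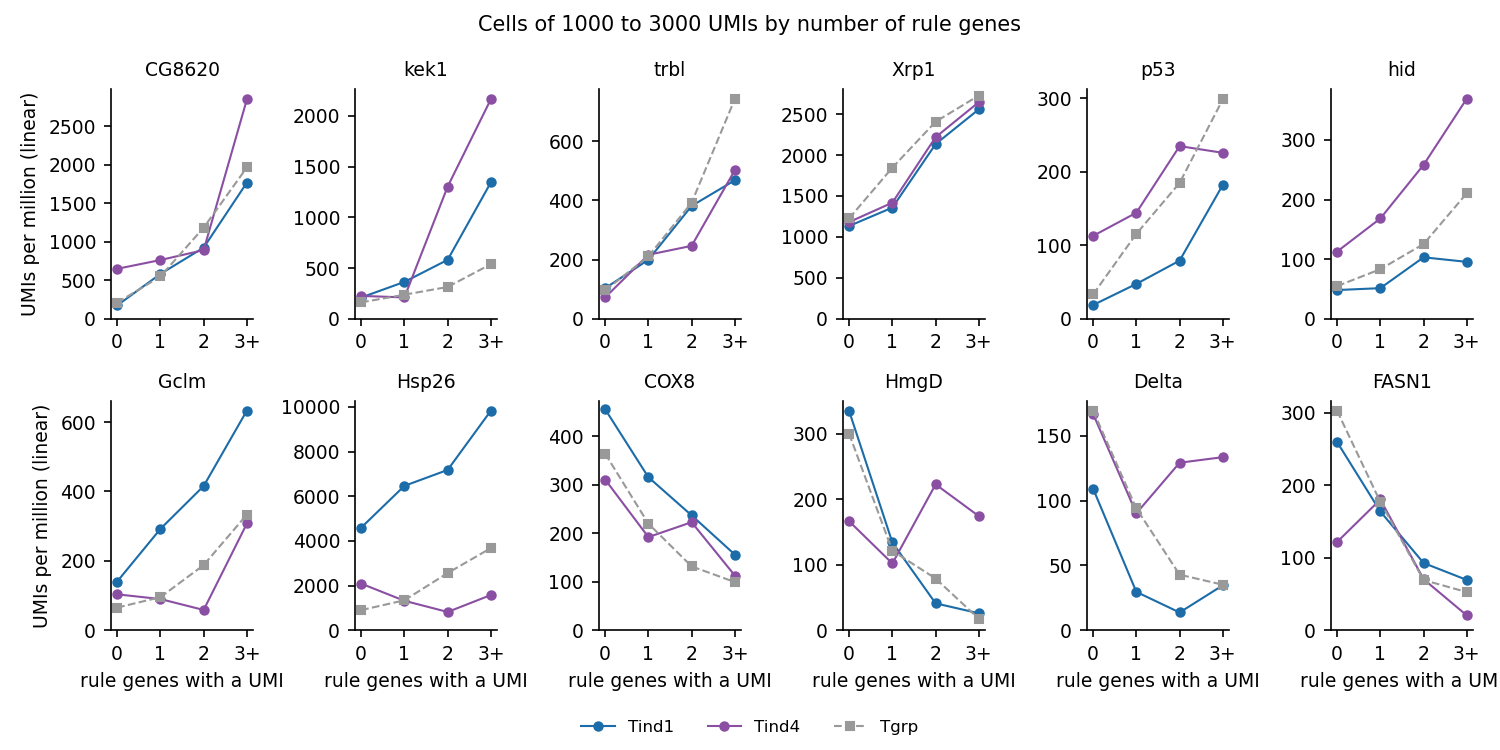
Level of 12 genes (CPM, linear axis) in cells of 1000 to 3000 UMIs with UMIs in 0, 1, 2 and 3 or more rule genes (x axis), in Tind1, Tind4 and Tgrp (dashed). Xrp1 and trbl go up with each step in all 3 libraries; HmgD and Delta go down in Tgrp from 0 to 3 or more genes but have no such order in Tind4.

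Rule-positive cells were also split by the 2 leading rule genes. Of the 418 rule-positive cells of Tind1, 210 had both Gadd45 and GstD5, 92 Gadd45 without GstD5 and 79 GstD5 without Gadd45. CG8620 had 1634 CPM in the cells with Gadd45 alone of the pair and 517 CPM in those with GstD5 alone, and in Tgrp 1416 and 581 CPM. Gclm ran the other way, with 225 CPM in cells with Gadd45 alone and 517 CPM in those with GstD5 alone in Tind1, and 118 and 175 CPM in Tgrp. Hsp26 had 5457 and 8822 CPM in Tind1 and 777 and 3875 CPM in Tind4. Depth was not matched in this split, and the median cell had 1800 UMIs with Gadd45 alone and 2188 with GstD5 alone in Tind1, and 2756 and 3736 in Tind4. These values are a description of cells within libraries, which were split by genes of the rule.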

How the data were processed

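The authors deposited raw counts of UMIs, whole numbers for each gene in each cell, made with Cell Ranger 6.0.1 from 3′ droplet libraries on Drosophila genome release 6.42. Symbols came from the annotation (17556 of 17619 entries). The members, the lists and the named genes were chosen with earlier results of these data known. Each rule-positive cell was matched without replacement to the other kept cell of its library with the nearest total, within 10% and without the rule genes. All were matched except 1 of 226 in Tind4. Sums of the 6 individual tumors, with Tgrp as values beside them, went into edgeR 4.0.16 in R 4.3.3 (quasi-likelihood test after TMM scaling and filterByExpr, p-values adjusted by Benjamini-Hochberg), with the tumor as a block, since both sums of a pair come from the same tumor. edgeR and DESeq2 1.42.0 were checked on simulated sums. p-values measure the spread over these 6 tumors. A list was described by its calls and its median. Named genes were the rule genes, lncRNA:noe, the 15 largest rises and 10 largest falls among calls at an adjusted p of 0.05 that had 1 sign in every tumor, and up to 4 genes per list by lowest adjusted p. CG12224, CG10005, mfas, Tango9, GstD6, GstD10 and Cd8a-EGFP were named after their values were seen, as were list members beyond 4. Single values used exact sign-flip tests (numpy 2.4.6). Total UMIs per deposited library were 289733 to 6354105, and low totals widen every error. Alternatives covered the block, scaling, filter, depth, rule, mitochondrial limit and each tumor. Positions are those of Ensembl's release 6 annotation.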

Additional observations from a re-analysis of the deposited data

Results flagged for a closer look

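Among 53 sets of 6 tumor values examined, 5 had 1 tumor far from the other 5, where chance alone gives about 1 in 20. In rule-positive cells CG8620 had 4560 CPM in Tind5, against 347 to 1658 CPM in the other tumors, and lncRNA:noe had 4863 CPM in Tind5, against 86.7 to 999.8 CPM. rdog had 913.3 CPM in Tind3, against 132 to 188 CPM, a value that rests on 19 UMIs. HmgD had 260.2 CPM and scramb2 173.5 CPM in Tind6, against 20.9 to 104 CPM and 0 to 43.7 CPM in the other tumors, and the Tind6 value of HmgD rests on 6 UMIs. For HmgD and scramb2 the matched cells of Tind6 were the highest of the 6 tumors as well, at 763 and 254 CPM, and for rdog the matched cells of Tind3, at 529 CPM.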

How the results depend on the processing

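The tumor block carried much of the precision. Without the replicate block 58 of 1218 genes (4.76%, against 36.5% with it) were called, 33 higher and 25 lower, and all 445 genes called with the block kept their sign. DESeq2 called 401 and edgeR with DESeq2 size factors 449. The number of genes tested changed too. The count was 690 of 10330 (6.68%) with no filter on low counts, 803 of 2721 (29.5%) against unmatched cells, 699 of 1404 (49.8%) with Tgrp added, 65 of 252 (25.8%) with cells thinned to 300 UMIs, 31 of 347 (8.93%; 26 higher, 5 lower) with the rule on thinned cells and 165 of 915 (18.0%) with marked cell types left out. In alternatives chosen after seeing the data it was 226 of 625 (36.2%) without Hsp68 or Hsp70 cells, 207 of 606 (34.2%) with Gadd45 out of the rule and 754 of 3379 (22.3%) without Tind3 and Tind6. Leaving out 1 tumor gave 215 (without Tind1, 21.7% of 990) to 505 calls.

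The mean share of cells was 5.52% with at least 3 rule genes and 4.34% on thinned cells. With at least 3 rule genes only 4 tumors remained, and the mitochondrial difference was -1.90 percentage points and that in detected genes -11.7 (exact permutation p = 0.125 for both, the smallest that 4 tumors allow). With a mitochondrial limit of 30% the mitochondrial difference was -2.88. In 2 alternatives chosen after seeing the data, the rule on thinned cells gave -0.80 and -4.45 over 5 tumors (exact permutation p = 0.25 for the first, and above the threshold for the second), and leaving out marked cell types gave -1.51 and -4.37 (exact permutation p = 0.0625 and 0.125). Against unmatched cells the gene difference was -9.38 (exact permutation p = 0.0625). Leaving out 1 tumor gave -1.56 to -1.24 percentage points and -12.9 to -9.63 genes, where exact permutation over 5 tumors cannot go below p = 0.0625.

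For 70 named genes, 1198 of 1348 repeated values kept direction and side of the threshold, 129 lost the call, 18 gained it and 3 reversed. These were unevenly spread over the alternatives. With the rule on thinned cells 8 stayed the same, 16 lost the call and 2 reversed. Hsp26, Hsp23, Hsp27, Hsp68, Ldh, ref(2)P and Atg8a were among those that lost it there. Without the replicate block 35 stayed the same and 35 lost the call. Xbp1 reversed to -0.025 with the rule on thinned cells and to -0.0094 with marked cell types left out, and Ras85D, called lower in 5 other alternatives, to 0.25 with the rule on thinned cells. The causes were not tested. Depth limits the comparison to 1218 genes, and Tind3 and Tind6 add few UMIs to any of them.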
